A study of Homo sapiens with 12 samples.

Results

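miR-31 is a single microRNA (miRNA) gene on chromosome 9 whose hairpin can give 2 mature strands, miR-31-5p from its 5′ arm and miR-31-3p from its 3′ arm. Both were chosen by name (hsa-miR-31-5p and hsa-miR-31-3p), and they are 2 of the 1636 mature miRNAs in a count table from tumour-cell vesicles. The study sequenced small RNA from extracellular vesicles, the membrane-bound particles that cells release into their medium, of 6 cell lines: MDST8, Hutu80, RCM-1, Car-1, SW1116 and HT55. Each line has 2 libraries, 12 in all, and none was treated or genetically changed according to the labels. All were grown in the same medium with fetal bovine serum, and the labels give CRC (colorectal cancer) as the cell type of every line, although Hutu80 is known as a line from a tumour of the duodenum. The design text describes 3 lines of consensus molecular subtype 2 and 3 of subtype 4. The labels tie no line to a subtype, so lines are compared with each other. Whether a line's libraries are separate cultures is not stated either, and the p-values below therefore reflect library-to-library spread that can be technical.

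A miRNA hairpin is cut by Drosha and then Dicer into a short duplex, of which 1 strand is usually kept in an Argonaute protein while the other is mostly lost. The kept strand pairs through its seed, near the 5′ end, with messenger RNAs and lowers their output. miR-31-5p is the main strand of this gene. It is often raised in colorectal tumours relative to normal mucosa, especially in BRAF-mutant tumours of the serrated type, and its known targets include RASA1, a brake on RAS, and the Hippo kinase LATS2. miR-31-3p has been studied as a marker of response to antibodies against EGFR in metastatic colorectal cancer.

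The sequences of miR-31-5p and of its hairpin are shown because the seed sets what the miRNA can pair with and the hairpin shows which strand is the 5p arm. Capitals mark the seed (bases 2 to 8) in the mature strand and the whole of miR-31-5p in the hairpin (RefSeq, GRCh38.p14, minus strand).
miR-31-5p: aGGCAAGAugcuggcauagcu
MIR31 hairpin: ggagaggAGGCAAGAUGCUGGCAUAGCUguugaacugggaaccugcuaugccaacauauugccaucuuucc
The hairpin has 71 bases and lies at chr9:21512115-21512185. It is inside the first intron (intron 1) of MIR31HG, the long non-coding RNA gene that hosts it, which runs along the same strand (GENCODE annotation, 21455642 to 21559669). The tumour suppressor genes CDKN2A and CDKN2B lie 456 kb and 491 kb away, and the metabolic gene MTAP, which is often lost with CDKN2A in tumours, 290 kb away. Of the 1470 rows of the table with a RefSeq mature sequence, 1 had this seed, miR-31-5p itself. A single other row, miR-6809-5p, shared bases 2 to 7, and it had 0 counts in all 12 libraries. The counted miRNAs encoded within 2 Mb of the hairpin were hardly present: miR-4473 had 24 counts in all, miR-491-5p 7 and miR-491-3p 1. miR-4474-5p and miR-4474-3p, also within 2 Mb, were not among the 1636 miRNAs counted.

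The shallowest library (Hutu80 replicate 1) held 71831 counts and the deepest (SW1116 replicate 1) 622800. Levels are given as CPM, the count divided by the library total on a common scale, and 1 count was worth 13.9 CPM in the shallowest library and 1.61 CPM in the deepest. The 6 gut epithelial marker miRNAs were detected in every line. Their summed level was 4244 to 5096 CPM in MDST8 and 10266 to 12919 CPM in Hutu80, against 22990 to 120304 CPM in the other 4 lines. The 6 miRNAs of blood and serum, which serum in the medium could bring in, summed to 1815 to 2027 CPM in MDST8 and 4078 to 5541 CPM in Hutu80, against 1074 CPM (SW1116) to 6460 CPM (Car-1) in the other 4. miR-144-3p, a miRNA of red blood cells, was at 0 in MDST8, RCM-1 and SW1116. The 5 miRNAs of stroma and muscle summed to 332 to 368 CPM in MDST8, against 209 to 973 CPM in the other 5 lines. Low epithelial markers went with high miR-31-5p in MDST8 and Hutu80, and their part in the result was not tested.

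The first question was how the level of miR-31-5p differed among the lines. It was highest in MDST8 vesicles, second in Hutu80, and low in the other 4 lines, which could not be put in order. MDST8 had 535 and 505 counts of miR-31-5p, which is 1699 and 1586 CPM after trimmed-mean (TMM) scaling. Hutu80 followed with 427 and 655 scaled CPM, from 39 and 78 counts. RCM-1 was at 229 and 231 CPM and Car-1 at 236 and 220 CPM. Both libraries of each of these lines lay between those of Hutu80 and those of HT55. SW1116 had 161 and 270 CPM, a wider spread that overlapped with RCM-1, Car-1 and HT55. HT55 had the lowest mean, with 122 and 177 CPM from 14 and 38 counts. All 10 libraries of the other lines lay below both MDST8 libraries, a separation that 15.1% of the tested miRNAs showed for MDST8.

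**Figure D1:**
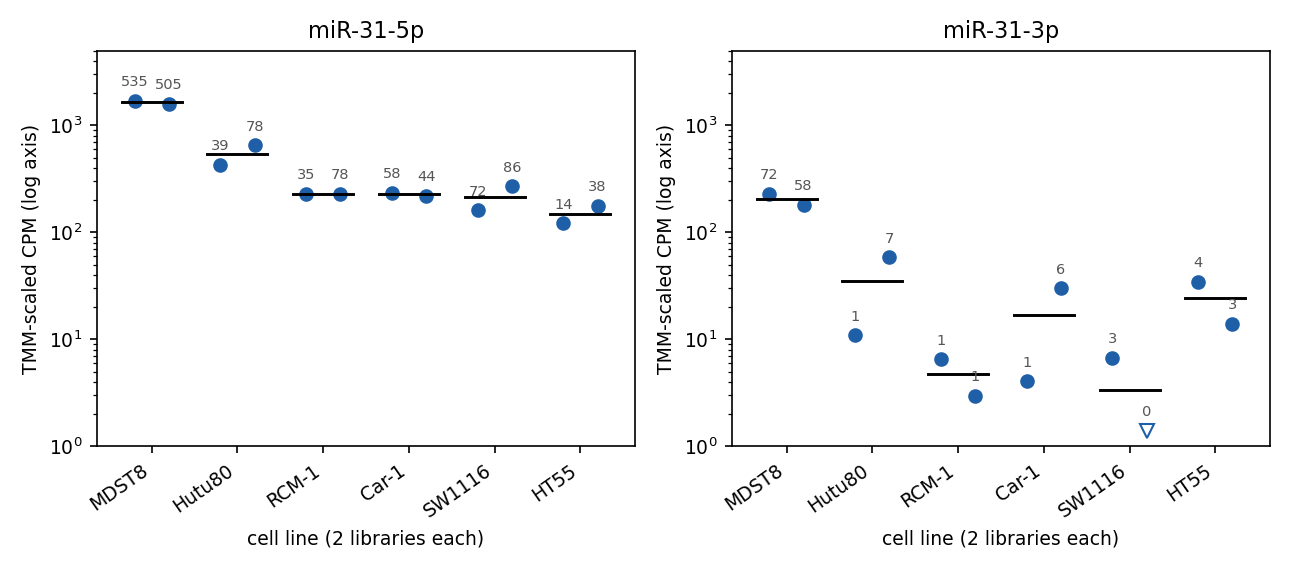
TMM-scaled CPM (log axes) of miR-31-5p on the left and miR-31-3p on the right in each of the 12 libraries, by line; points are libraries labelled with their raw count, bars are means of 2 libraries, and the open triangle is a library with 0 counts. MDST8 stands above every other library for both arms, and miR-31-3p rests on 0 to 7 counts in each of the other 10 libraries.

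miR-31-5p took 0.161% ± 0.0051 (SD, n = 2) of counts in MDST8, where it ranked 55 and 58 of the 1636 by count. In Hutu80 it took 0.0659% ± 0.0165 and ranked 103 and 93. Ranks in the other 4 lines ran from 122 to 164, with shares of 0.0328% ± 0.0012 in Car-1 and 0.0142% ± 0.0059 in HT55. Without TMM scaling, the counting intervals (95%, exact Poisson) were 1444 to 1713 CPM and 1506 to 1796 CPM in MDST8, against 55.2 to 169 CPM and 130 to 252 CPM in HT55. Intervals cover counting error only. They also assume that the counts are independent molecules, which is not known, and would be too narrow if they are not.

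Across the 6 lines miR-31-5p differed in edgeR's quasi-likelihood F-test, adjusted over all 318 tested miRNAs (adjusted p = 2.13e-08). This test called 68.2% of all tested miRNAs, among which miR-31-5p ranked 48 by p. Against the mean of the other 5 lines it rose in MDST8, by 2.73 ± 0.25 (SE) on the log2 scale or 6.63-fold (adjusted p = 1.38e-09, edgeR), higher in both libraries, where 22% of the tested miRNAs were called higher. It also rose in Hutu80, by 0.81 ± 0.29 (adjusted p = 0.0305), in a comparison with 23% called higher. It fell in HT55, by 1.39 ± 0.35 (adjusted p = 0.0037), where 10.4% were called lower. The difference was -0.80 ± 0.31 in SW1116 (adjusted p = 0.0504), -0.69 ± 0.32 in Car-1 (0.098) and -0.67 ± 0.32 in RCM-1 (0.102), none of which passed. The mean that HT55 was set against includes MDST8 and Hutu80. HT55 was not called lower than RCM-1 (adjusted p = 0.376, edgeR), Car-1 (0.332) or SW1116 (0.435) alone. The Hutu80 call was the weakest of the 3. It remained only when SW1116 replicate 2 was left out (adjusted p = 0.0278) and ended when any other library was (0.0531 without RCM-1 replicate 2 to 0.863 without Hutu80 replicate 2), and also in 5 of 9 other settings (0.0568 to 0.945). The HT55 call ended without HT55 replicate 1 (adjusted p = 0.103).

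Another scaling of the libraries moved the median of all tested miRNAs with it. With library totals as the only scaling, that median went to 0.64 in Car-1 and to -0.88 in SW1116, against 0.02 and -0.22 with TMM. Relative to the median of all tested miRNAs, miR-31-5p was 3.02 higher in MDST8 with library totals and 3.05 higher with TMM, and 0.73 higher in Hutu80 with both. Relative to that median it was -1.30 in HT55 with library totals and -1.31 with TMM. A change of scaling shifts all miRNAs of a library alike, so these relative values had to stay nearly the same. They are a description and do not test which scaling is right.

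Of the 15 pairs of lines, 9 passed for miR-31-5p, and these were the 5 pairs with MDST8 and the 4 pairs of Hutu80 with a lower line. The share of all tested miRNAs called higher in MDST8 was 17.3% against Hutu80, 21.7% against RCM-1, 19.2% against Car-1, 17% against SW1116 and 18.9% against HT55. For Hutu80 the share called higher was 23% against RCM-1, 9.75% against Car-1, 24.5% against SW1116 and 15.7% against HT55. A tested miRNA had a median of 5 called pairs, and 21.1% of them had at least 9. MDST8 exceeded Hutu80 by 1.59 ± 0.38 (SE, log2; adjusted p = 0.00211, edgeR) and HT55 by 3.43 ± 0.42 (2.98e-07). Over the other settings the called pairs ran from 6, with no filter on low counts, to 10. The weakest of the 4 Hutu80 calls was over Car-1 (1.25 ± 0.40, adjusted p = 0.0279, edgeR). Hutu80 exceeded RCM-1, its next neighbour, by 1.24 ± 0.40 (adjusted p = 0.0134). That call ended without Hutu80 replicate 2 (0.383), Car-1 replicate 2 (0.0569), RCM-1 replicate 1 (0.0871) or RCM-1 replicate 2 (0.0768), and with no filter on low counts (0.305). Without Hutu80 replicate 2 the number of called pairs was 5.

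None of the 6 pairs among RCM-1, Car-1, SW1116 and HT55 passed in the edgeR fit with TMM scaling, and none had an unadjusted p below 0.05 (the lowest was 0.166). The share of all tested miRNAs called in either direction was 13.5% for RCM-1 against SW1116 and against HT55, 20.4% for SW1116 against HT55, 28.9% for Car-1 against HT55, 39.3% for Car-1 against SW1116 and 42.1% for RCM-1 against Car-1. The neighbours in the order of means differed by 0.01 ± 0.40 (RCM-1 over Car-1), 0.09 ± 0.39 (Car-1 over SW1116) and 0.49 ± 0.41 (SW1116 over HT55). The 95% interval of SW1116 over HT55 ran from -0.35 to 1.34, which includes changes of more than 2-fold. With library totals Car-1 was above SW1116 by 1.19 (adjusted p = 0.0148, edgeR), and in limma-trend by 1.21 (adjusted p = 0.0174). The limma-trend fit used the deposited log2 values, which are also scaled by library totals, so it is no separate support. In limma-voom, with TMM scaling, the difference was 0.16 (adjusted p = 0.753). Car-1 was also above RCM-1 with library totals (-0.67, RCM-1 over Car-1, adjusted p = 0.187, edgeR), which was not called. The result for these lines therefore depended on the scaling, and which scaling is right was not tested. Relative to the median of all tested miRNAs, miR-31-5p was at -0.70 in Car-1 and -0.60 in SW1116 with library totals, and at -0.71 and -0.58 with TMM. Such relative values hardly change with the scaling by construction, so they cannot decide between the scalings.

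**Figure D2:**
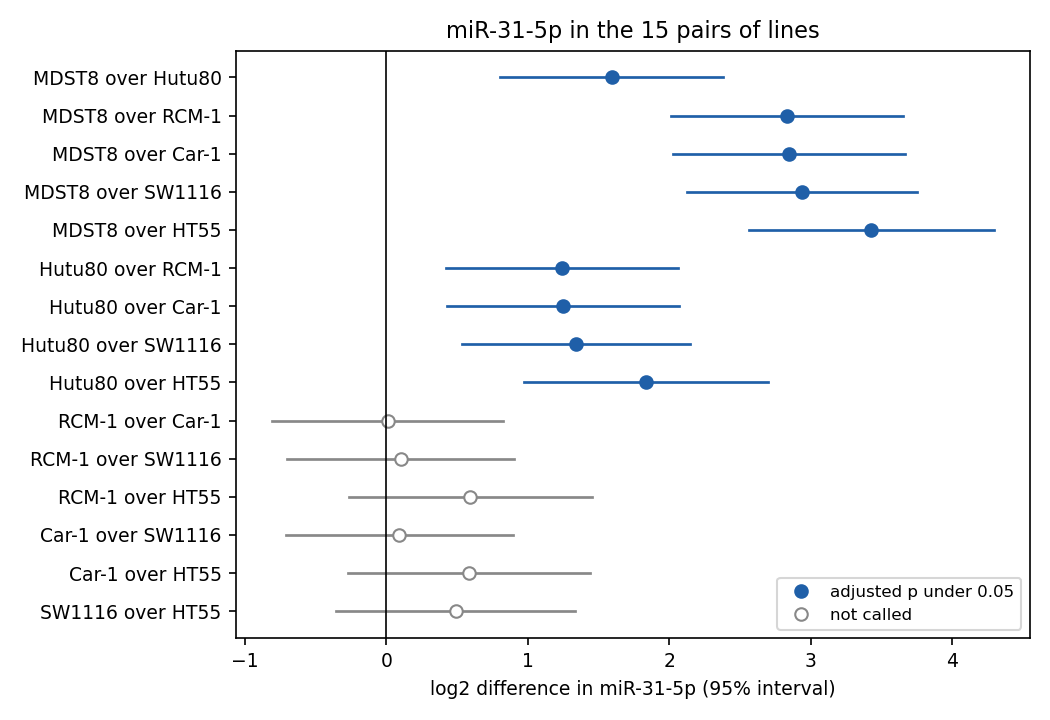
Log2 difference in miR-31-5p (x axis) for each of the 15 pairs of lines, with 95% intervals from the edgeR fit; filled points passed an adjusted p of 0.05. All 9 pairs that involve MDST8 or Hutu80 lie above 0, from 1.24 to 3.43, and the intervals of the 6 pairs among the other 4 lines include 0.

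The 3p arm was asked next. miR-31-3p also peaked in MDST8 vesicles and was close to the detection limit elsewhere. MDST8 had 72 and 58 counts (229 and 182 scaled CPM), which is 130 of the 157 counts of miR-31-3p in the whole series. Hutu80 had 1 and 7 counts, RCM-1 had 1 and 1, Car-1 had 1 and 6, SW1116 had 3 and 0, and HT55 had 4 and 3. All 10 lay below both MDST8 libraries, the highest being Hutu80 replicate 2 at 58.8 scaled CPM. In SW1116 replicate 2, the 0 counts allow a level of up to 6.02 CPM (3 counts).

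miR-31-3p passed the filter on low counts only through MDST8, so a difference among lines was built into its being tested. It differed across lines (adjusted p = 5.14e-05, edgeR) and rose in MDST8 against the mean of the other 5, by 4.06 ± 0.58 (SE, log2; adjusted p = 3.17e-06), higher in both libraries. With so few counts in other lines that fitted value depends on the prior count. On pooled unscaled counts, the MDST8 level was 4.33 times that of Hutu80 (95% counting interval 2.13 to 10.2), 8.92 times that of Car-1 (4.21 to 22.6) and 9.92 times that of HT55 (4.68 to 25.2). Against SW1116, with 3 counts, the ratio was 75.1 (25.1 to 369), and against RCM-1, with 2 counts, 54.8 (14.9 to 457). The same ratios for miR-31-5p were 2.37 (1.96 to 2.89) against Hutu80, 4.90 (3.99 to 6.06) against Car-1, 10.7 (8.09 to 14.4) against HT55, 11.4 (9.64 to 13.6) against SW1116 and 7.75 (6.38 to 9.50) against RCM-1. The ratio was larger for miR-31-3p than for miR-31-5p against 4 lines and smaller against HT55, with overlapping intervals against Hutu80, Car-1 and HT55.

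The second call of miR-31-3p by line was in SW1116, where it fell (adjusted p = 0.0456, edgeR; 3 counts over both libraries), in a comparison with 16.7% of tested miRNAs called lower. This call ended with no filter (0.133), with a filter of 10 CPM in 2 libraries (0.0529), in DESeq2 (0.0628) and when 1 library was left out, for 8 of the 12. These were RCM-1 replicate 1 (0.074) and 2 (0.0514), HT55 replicate 1 (0.0606) and 2 (0.0506), SW1116 replicate 2 (0.347), MDST8 replicate 1 (0.0633), Car-1 replicate 2 (0.107) and Hutu80 replicate 2 (0.121). Of the 15 pairs of lines, 6 passed for miR-31-3p. They were the 5 pairs with MDST8 and Hutu80 over SW1116 (adjusted p = 0.0392, edgeR), and a tested miRNA had a median of 5 called pairs. Since miR-31-3p was tested only through MDST8, its calls with MDST8 are no separate support for a difference. Of all tested miRNAs, 17.3% were called higher in MDST8 against Hutu80, 21.7% against RCM-1, 19.2% against Car-1, 17% against SW1116 and 18.9% against HT55. In Hutu80 against SW1116 it was 24.5%. MDST8 over Hutu80 (adjusted p = 0.0363) was not called without MDST8 replicate 1 (0.113) or 2 (0.063) or Hutu80 replicate 1 (0.144), nor with library totals (0.0571), DESeq2 (0.0652) or limma-trend (0.114). MDST8 over HT55 (0.00904) was not called without HT55 replicate 2 (0.118) or in limma-trend (0.0597), and MDST8 over Car-1 (0.00367) was not called without Car-1 replicate 1 (0.0542). Hutu80 over SW1116 was lost in 4 of 9 other settings (0.052 to 0.203) and without Car-1 replicate 1 (0.0515), MDST8 replicate 1 (0.0504), HT55 replicate 2 (0.0643), SW1116 replicate 2 (0.215) or Hutu80 replicate 2 (0.734).

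The ratio of the arms was then compared within each library, where no scaling between libraries is needed. The 5p strand outnumbered the 3p strand in all 12 libraries. miR-31-3p made up 11.9% of the 607 miR-31 counts in MDST8 replicate 1 (95% exact Clopper-Pearson interval 9.40 to 14.7) and 10.3% of 563 in replicate 2 (7.92 to 13.1). It made up 2.5% of 40 counts (0.063 to 13.2) and 8.24% of 85 (3.38 to 16.2) in Hutu80. The shares were 2.78% of 36 and 1.27% of 79 in RCM-1, and 1.69% of 59 and 12% of 50 in Car-1. SW1116 had 4% of 75 and 0 of 86, with an interval of 0 to 4.20 (a count of 3 would be 3.49%). HT55 had the widest interval, 22.2% of 18 counts (6.41 to 47.6), with 7.32% of 41 in its other library.

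Pooled over the libraries of a line, the 3p share was 11.1% in MDST8 (9.37 to 13.1) and 11.9% in HT55 (4.91 to 22.9). Both pooled shares were above those of Hutu80 (6.4%) and Car-1 (6.42%), whose intervals overlapped with theirs. RCM-1 (1.74%, 0.211 to 6.14) and SW1116 (1.86%, 0.386 to 5.35) had the lowest shares, with intervals that end below the MDST8 interval. These intervals ignore the spread between libraries. Expressed as a ratio, there were 8.0 counts of miR-31-5p per count of miR-31-3p in MDST8 and 20.1 in the other 5 lines pooled.

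**Figure D3:**
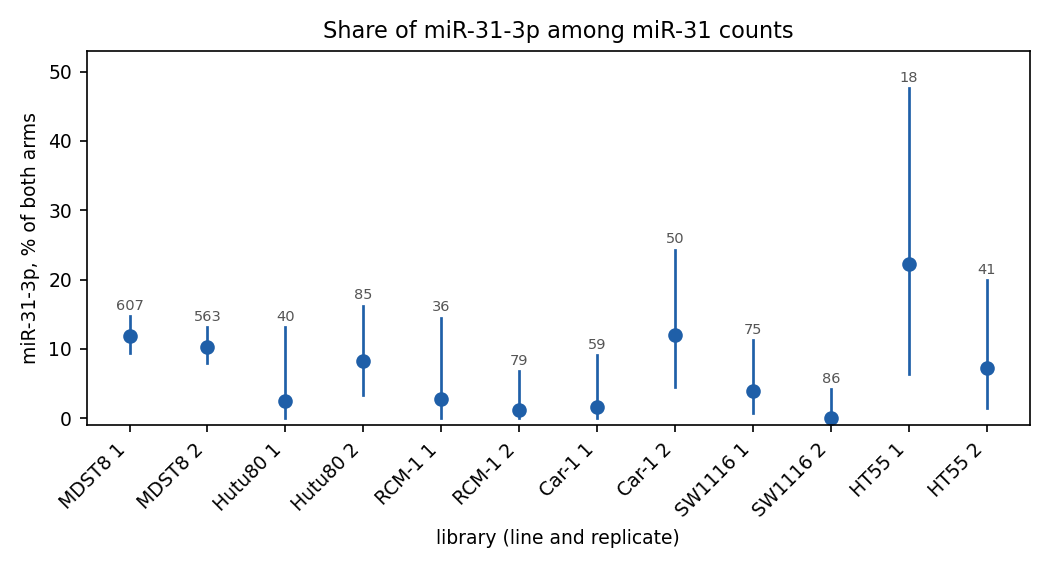
Share of miR-31-3p in the counts of both miR-31 arms (percent, y axis) in each library, with 95% exact binomial intervals; the number above each interval is the count of both arms. The 2 MDST8 libraries have intervals 9.40 to 14.7 and 7.92 to 13.1, and most other libraries have intervals that overlap with them.

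When the spread between libraries was taken into account, the arm ratio of miR-31 did not pass as different across the 6 lines. In edgeR, with a term per library and a 3p term per line, the adjusted p was 0.489 over 107 arm pairs (unadjusted p = 0.192), and 11 of these pairs were called (10.3%). The exact permutation test over all 10395 ways to pair the 12 libraries gave p = 0.269 (log2 ratio with 0.5 added, 1-sided for closeness within lines). The log2 ratio of 3p to 5p was 1.35 higher in MDST8 than in the mean of the other 5 lines, with a 95% interval of -0.27 to 2.97 (adjusted p = 0.401). The larger log2 change of miR-31-3p in MDST8 than of miR-31-5p is not shown to be a difference between the arms. Nor is an equal ratio shown, since the interval includes a change of more than 4-fold. In HT55 the same difference was 1.67 (-0.55 to 3.89), and in RCM-1 it was -1.77 (-4.40 to 0.85).

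Among the 107 arm pairs, miR-31 ranked 25 by the preference for its 5p strand, with a mean log2 ratio of 4.06 over the lines. The 5p strand led in 57 pairs and the 3p strand in 50. Its neighbours in this order were miR-185 (4.49) and miR-193a (4.01). The SD of the log2 ratio between lines was 1.19 for miR-31, against a median of 0.97 over all pairs and 0.82 over the 25 pairs whose rarer strand had a similar total (within 2-fold), where it ranked 7. The arm pairs called with the smallest p were miR-30d (adjusted p = 0.000156), miR-221 (0.00023) and miR-92b (0.000813). Of these, miR-30d had 68255 counts of its 5p strand and 144 of its 3p strand, so its ratio also rests on a rare strand.

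**Figure D4:**
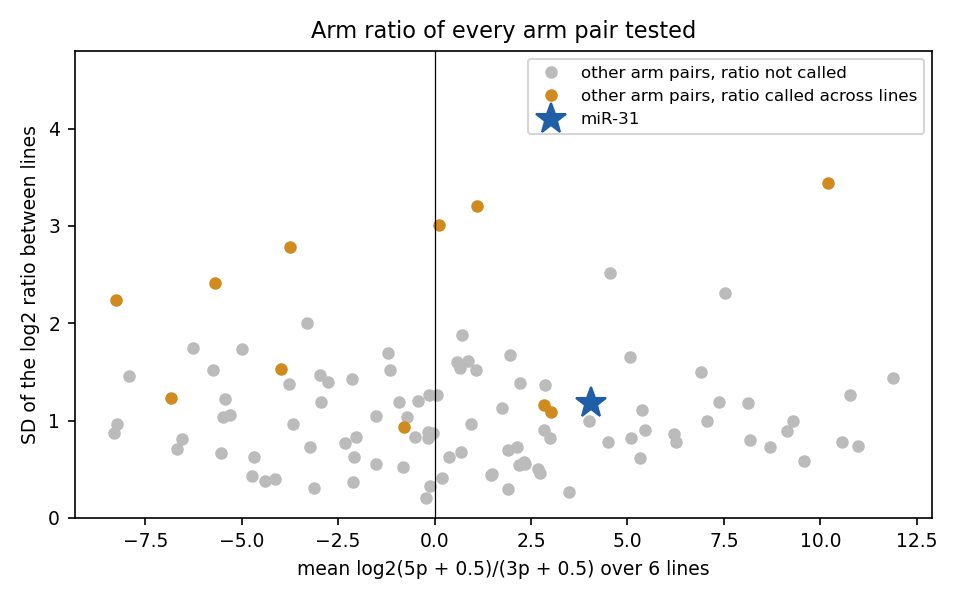
Mean log2 ratio of 5p to 3p counts over the 6 lines (x axis, 0.5 added to both) and its SD between lines (y axis) for the 107 arm pairs tested; orange points passed across lines. miR-31 (star) lies at 4.06 with an SD of 1.19, inside the cloud of pairs that were not called.

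Over the 12 libraries the log2 levels of the arms had a Pearson r of 0.79 and a Spearman rho of 0.31. Without MDST8 the r was 0.23 and the rho -0.19 over 10 libraries. The relation of the arms rested on MDST8, and libraries of a line are not independent points. The arms share library, depth and hairpin, and at 0 to 7 counts of miR-31-3p outside MDST8 a weak relation is no finding.

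The miRNAs whose pattern was most like that of miR-31-5p were ranked by Pearson's r of log2 scaled CPM over the 12 libraries. The r had a median of -0.03 over 316 miRNAs. The nearest were miR-193a-5p (r = 0.92), miR-148b-3p of the miR-148/152 family (0.91), miR-10395-3p (0.90), miR-34a-5p, which p53 induces (0.88), and let-7i-5p of the let-7 family (0.88). miR-31-3p itself would rank 15. Having been picked for likeness to a pattern that peaks in MDST8, all 5 were highest there, and this is a description with no test. miR-10395-3p passed the filter on low counts only through MDST8, at 88.3 ± 26.1 CPM there and 2.96 to 9.67 CPM on average in the other lines. In the 10 libraries without MDST8 their r was 0.75, 0.77, 0.55, 0.50 and 0.43 in the same order. Ranking by Spearman's rho kept 1 of the 5.

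Levels of miR-193a-5p were 675 ± 84.2 CPM in MDST8 and 306 ± 77.4 CPM in Hutu80, against 107 ± 12.5 CPM in SW1116 (SD, n = 2 each). miR-34a-5p was at 2712 ± 762 CPM in MDST8 and 516 ± 173 CPM in Hutu80, against 178 ± 11.5 CPM in RCM-1. let-7i-5p differed in that Hutu80 (4760 ± 448 CPM) stood close to Car-1 (5277 ± 32.1 CPM). The sequences of those with a RefSeq entry are shown because their seeds, in capitals, can be set against that of miR-31-5p. None has its 7-base seed.
miR-193a-5p: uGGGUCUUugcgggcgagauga
miR-148b-3p: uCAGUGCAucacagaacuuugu
miR-34a-5p: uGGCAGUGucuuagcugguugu
let-7i-5p: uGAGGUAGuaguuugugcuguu
These mature strands lie at chr17:31560016-31560037, chr12:54337278-54337299, chr1:9151735-9151756 (minus strand) and chr12:62603691-62603712, none of them on the chromosome of MIR31.

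**Figure D5:**
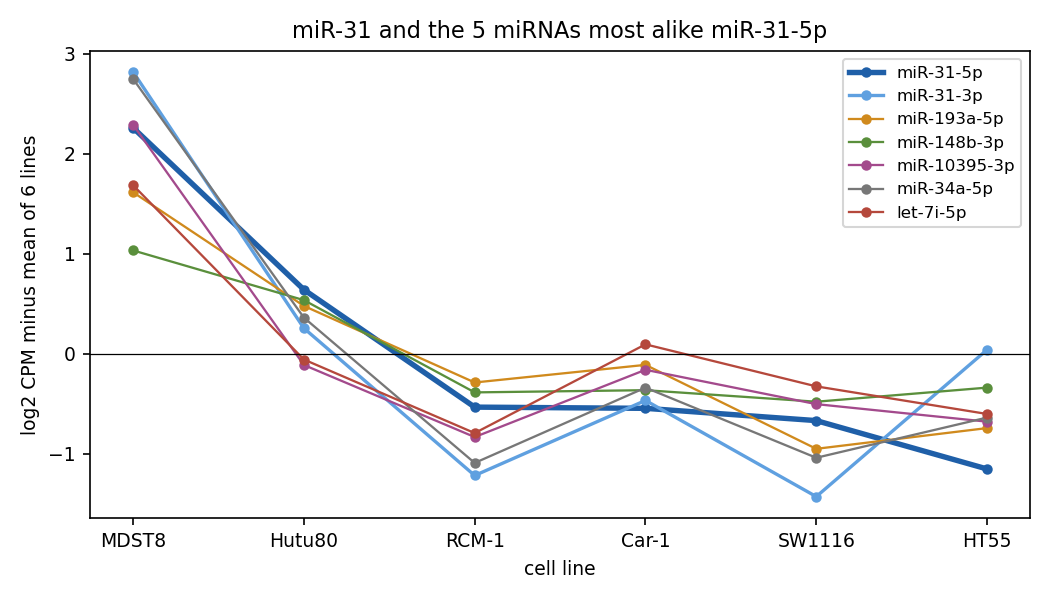
Mean log2 CPM of each line minus the mean over the 6 lines (y axis) for both arms of miR-31 and the 5 miRNAs most like miR-31-5p. All 7 are highest in MDST8, and miR-31-3p departs from miR-31-5p in HT55, where it rests on 7 counts.

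The most opposite patterns were those of miR-200b-3p (r = -0.94) and miR-200a-3p (-0.91), which repress the mesenchymal transcription factors ZEB1 and ZEB2, and of miR-196b-5p (-0.92), which lies in the HOXA gene cluster. Without MDST8 their r was -0.92, -0.86 and -0.85 over 10 libraries. miR-200b-3p was at 1021 ± 253 CPM in MDST8 and 2228 ± 103 CPM in Hutu80, against 39685 ± 9475 CPM in HT55, the reverse of the order of miR-31-5p at both ends. miR-200a-3p was at 122 ± 16.6 CPM in MDST8 and 176 ± 0.94 CPM in Hutu80, against 2034 ± 248 CPM in HT55. These correlations are descriptions over libraries of only 6 lines.

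miR-31-5p was last set beside 12 other miRNAs that are often raised in colorectal tumours, all of which were tested. In MDST8, where miR-31-5p rose, 2 of the 12 rose, 4 fell and 6 did not pass, with a median difference of -0.50 against -0.32 over all tested miRNAs. The list's median was 0.20 in Hutu80 (0.09 over all tested miRNAs), 0.43 in RCM-1 (-0.12), -0.46 in Car-1 (0.02), 0.67 in SW1116 (-0.22) and 0.53 in HT55 (-0.08). The 2 that rose were miR-21-5p, which targets the tumour suppressor PDCD4 (1.25 ± 0.22, adjusted p = 4.95e-05), and miR-182-5p of the miR-183 cluster (0.84 ± 0.21, 0.0017). miR-92a-3p fell there by 2.12 ± 0.25 (adjusted p = 1.73e-07), at 16637 ± 142 CPM in MDST8 against 110434 ± 12050 CPM in HT55. In Hutu80, 4 of the 12 fell and 8 did not pass. miR-21-5p was among those that fell, at -0.74 ± 0.26 (adjusted p = 0.0262). In HT55, 4 of the 12 rose and 1 fell, which was miR-21-5p (-1.22 ± 0.27, adjusted p = 0.00108). There miR-31-5p fell against the mean of the other 5 lines, but was not called lower than RCM-1, Car-1 or SW1116 alone. Of the 12, 5 rose and 2 fell in RCM-1, 2 rose and 5 fell in Car-1, and 5 rose and 1 fell in SW1116. Over all tested miRNAs, 22% were called higher and 22.3% lower in MDST8, 23% and 16.7% in Hutu80, 21.1% and 14.8% in RCM-1, 21.1% and 13.5% in Car-1, 17.6% and 16.7% in SW1116, and 13.8% and 10.4% in HT55. In SW1116 miR-21-5p was at 138014 ± 2365 CPM and miR-183-5p rose by 0.88 ± 0.20 (adjusted p = 0.00159), while miR-31-5p was at 215 ± 76.9 CPM.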

How the data were processed

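Small RNA libraries were made with IsoSeek, a protocol that tags molecules with unique identifiers, from vesicles separated by ultrafiltration and size-exclusion chromatography, per the labels' protocols. The authors deposited raw whole-number counts for each mature miRNA. Their second deposited table is on a log2 scale and matches log2(CPM + 1) computed from those counts (largest difference 5e-14). The submitters' processing notes name hg38. Not given in the sources used here are the aligner, the counter and any collapsing of identifiers. Capture and ligation can differ between sequences, so levels of the 2 arms are not strictly comparable.

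Counts were filtered with filterByExpr by line (318 of 1636 miRNAs kept), TMM-scaled (factors 0.641 to 1.46) and tested in edgeR 4.0.16 (glmQLFit, robust) with 1 mean per line over all 12 libraries and no block, Benjamini-Hochberg adjusted per comparison. Arm pairs needed 20 counts per arm. Alternatives used limma 3.58.1, DESeq2 1.42.0, other scalings, filters and pseudocounts, a replicate block, and leaving out each library. The limma-trend fit took the deposited log2 values, which are scaled by library totals without TMM. The libraries of a line differed by more than sampling noise (chi-square per degree of freedom 6.75 to 51.4). On data simulated for MDST8 against the other lines (287 miRNAs), the 2-fold changes were recovered in 6 of 16 cases, those of 4-fold in 21 of 21, and those of 8-fold in 13 of 13. For arm ratios (106 pairs), 10 of 22 changes of 4-fold and 10 of 16 of 8-fold were recovered. No unchanged feature was called in either. The simulated counts had the same spread for every miRNA, equal means in all lines apart from the changes, and arms drawn independently. The real libraries need not share these traits, so the figures are not error rates of the tests reported here.

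Both arms were named for study, and the lists and tests chosen, with earlier results of these data known. miRNAs named are both arms, the 5 most and 3 least alike miR-31-5p, list members with the highest mean CPM (up to 4), neighbours of miR-31 in arm ratio and the 3 arm pairs with the smallest p. Genomic neighbours, miR-6809-5p and marker miRNAs fall outside this rule.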

Additional observations from a re-analysis of the deposited data

How the results depend on the processing

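miR-31-5p passed across lines and rose in MDST8 in all 9 other settings and in all 12 fits without 1 library. So did miR-31-3p, whose difference was built into its passing the filter on low counts in the main fit. miR-31-3p did not depend on that step in the fit with no filter, where its MDST8 difference was 4.17 (log2). Its called pairs numbered 4 to 7 over settings and 4 to 6 without 1 library. The miR-31-5p difference in MDST8 ran from 2.70 to 2.91 over settings and from 2.72 to 2.98 without 1 library, and its HT55 difference from -1.55 to -1.14 without 1 library. The Hutu80 call of miR-31-5p was lost in some settings, listed with the log2 difference and then the adjusted p in brackets. With edgeR these were no filter (0.33, 0.945), 10 CPM in 2 libraries (0.68, 0.112) and leaving out the 10 most abundant miRNAs (0.56, 0.125). The others were DESeq2 (0.74, 0.0575) and limma-voom (0.81, 0.0568). The Hutu80 difference ran from 0.22 to 0.80 without 1 library. SW1116 gained a call with RLE size factors (-0.79), library totals (-1.48), DESeq2 (-0.80), limma-voom (-0.87), limma-trend (-1.48) and the replicate block (-0.81). RCM-1 gained one with library totals (-0.86) and limma-trend (-0.83), which is also scaled by library totals. Relative to the median of all tested miRNAs, miR-31-5p in SW1116 was at -0.60 with library totals and -0.58 with TMM. By construction, a change of scaling hardly alters such a value. The number of lines called for miR-31-5p was 5 with library totals and 5 with limma-trend, and 1 to 3 without 1 library. For miR-31-3p it was 1 with no filter, 1 with 10 CPM in 2 libraries, 1 in DESeq2, and 1 to 2 without 1 library. Called pairs numbered 5 to 9 without 1 library for miR-31-5p.

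Small differences among the low lines changed sign. RCM-1 over Car-1 was -0.0414 with RLE, -0.67 with library totals, -0.17 with no filter, -0.0114 with 10 CPM in 2 libraries, -0.0413 in DESeq2, -0.66 in limma-trend and -0.00623 with the replicate block, and -0.12 to 0.17 without 1 library. SW1116 over HT55 was -0.0149 with library totals, and Car-1 over SW1116 -0.29 to 0.44 without 1 library. The cause was not tested. The arm ratio passed in none of its alternatives (edgeR or limma adjusted p, or exact permutation p, of 0.233 to 0.654), nor without 1 library. Limma on log2 ratios called 6 arm pairs with 0.5 added and 16 with 2 added, against 11 in the main edgeR fit. The exact permutation test with 2 added, chosen after seeing the data, gave p = 0.24. Of the 5 miRNAs most alike, Spearman's rho kept 1 and line means kept 3.

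Replicate numbers showed no pairing common to all lines: deviations of same-numbered libraries correlated at -0.23 to 0.27 over 15 pairs of lines. In 5 of these pairs the correlation was over 0.1, and shared preparation of some libraries was not tested. Depth limits the 3p arm, with 27 counts over 10 libraries.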
